A study of Homo sapiens with 14 samples.

Results

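The genes of the epidermal growth factor (EGF) family and its ERBB receptors were examined in PC3, a cell line from a human prostate carcinoma, and HCT116, a cell line from a human colorectal carcinoma. The set was defined by gene symbol and held 10 of the 23106 genes in the count data, namely the ligands EPGN, AREG, EREG, BTC, HBEGF, TGFA and EGF and the receptors EGFR, ERBB2 and ERBB3. The 10 genes were selected on earlier results of these same libraries, in which the responses to hypoxia and the levels in both lines were already in view, so what follows for them is a description. Polyadenylated RNA was sequenced after 16 h at 0.5% O2 (hypoxia) or at 21% O2 (normoxia), from 4 hypoxic and 4 normoxic replicates of PC3 and from 3 of each of HCT116. The medium was DMEM/Hams F12 for PC3 and McCoy's 5a for HCT116, in both cases with fetal bovine serum, and neither line carried a further treatment or an engineered allele. The replicates are biological ones by the study's methods, while neither these nor the labels say whether a replicate was a separate culture, and each line stands for itself alone.

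EGF family ligands are made as membrane-anchored precursors, cut free at the cell surface by metalloproteases, and bind receptors on the same or neighbouring cells. Binding pairs the receptors and switches on their kinases, which drive the RAS-MAPK and PI3K-AKT pathways. In prostate and colon epithelium this system is known for its control of growth and repair, and carcinoma cells often make both ligand and receptor.

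A group of 4 ligand genes, EPGN, EREG, AREG and BTC, lies within 545.5 kb of chromosome 4. In the GENCODE annotation of GRCh37, EPGN spans 4:75174187-75182506, EREG 4:75230862-75254466 and AREG 4:75310853-75320722, all on the plus strand, and BTC spans 4:75669969-75719733 on the minus strand. EGF is on the same chromosome but far from the group, at 4:110834039-110934922. These 4 ligands had the lowest log2 fold changes of the set in hypoxic PC3 cells, and EGFR had the highest, so their promoters are shown. Each sequence is the 250 bases before the transcription start in RefSeq (GRCh38.p14), 5′ to 3′ on the strand of the gene, with any ACGTG or GCGTG on either strand in capitals (CACGT and CACGC are the same motifs read on the other strand). These letters are the core that the hypoxia-inducible factors are known to bind.
EPGN promoter, chr4:74308220-74308469, plus strand: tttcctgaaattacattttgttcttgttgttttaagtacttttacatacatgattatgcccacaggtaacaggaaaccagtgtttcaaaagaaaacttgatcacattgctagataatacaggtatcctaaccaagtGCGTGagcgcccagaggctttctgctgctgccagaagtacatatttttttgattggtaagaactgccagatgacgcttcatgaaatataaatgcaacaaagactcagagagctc
EREG promoter, chr4:74364895-74365144, plus strand: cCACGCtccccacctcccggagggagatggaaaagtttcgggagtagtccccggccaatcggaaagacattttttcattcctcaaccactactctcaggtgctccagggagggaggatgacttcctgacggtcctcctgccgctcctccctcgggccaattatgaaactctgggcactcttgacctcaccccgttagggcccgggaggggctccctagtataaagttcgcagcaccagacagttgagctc
AREG promoter, chr4:74444886-74445135, plus strand: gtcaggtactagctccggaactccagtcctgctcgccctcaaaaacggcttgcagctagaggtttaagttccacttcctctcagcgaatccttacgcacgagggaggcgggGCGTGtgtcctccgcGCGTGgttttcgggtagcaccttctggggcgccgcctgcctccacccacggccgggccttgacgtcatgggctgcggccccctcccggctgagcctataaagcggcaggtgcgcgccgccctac
BTC promoter, chr4:74794524-74794773, minus strand: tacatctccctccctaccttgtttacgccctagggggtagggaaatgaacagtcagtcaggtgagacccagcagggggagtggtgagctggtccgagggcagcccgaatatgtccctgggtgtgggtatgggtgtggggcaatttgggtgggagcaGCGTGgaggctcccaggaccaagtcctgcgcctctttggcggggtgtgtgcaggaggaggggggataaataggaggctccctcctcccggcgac
EGFR promoter, chr7:55018767-55019016, plus strand: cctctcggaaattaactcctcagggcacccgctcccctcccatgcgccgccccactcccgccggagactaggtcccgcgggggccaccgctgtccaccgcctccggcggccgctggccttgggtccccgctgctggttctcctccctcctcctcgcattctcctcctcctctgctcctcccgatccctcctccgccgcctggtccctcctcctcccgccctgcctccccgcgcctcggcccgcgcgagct
The AREG window held 2 matches, and the EPGN, EREG and BTC windows held 1 each, all of them GCGTG. The EGFR window shown held 0, as did a second EGFR window, those of HBEGF, EGF and ERBB2 and the first of the TGFA windows. A second TGFA window, at another start site, held 1 GCGTG, so matches were not limited to the clustered ligands. At least 1 match was present in 43.2% of the 35116 RefSeq promoter windows of this length, so a match is common, and it is a description of the letters and no sign of binding. RefSeq windows were found for 9 of the 10 genes, ERBB3 being the exception.

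Total counts were 71228454 to 123935458 in PC3 and 133067391 to 150630928 in HCT116. Levels are given as CPM, the counts scaled to the library size, on 1 scale over the 14 libraries after TMM scaling, which centres each library on the bulk of its genes. All 4 epithelial markers (EPCAM, KRT8, KRT18 and CDH1) were well expressed in both lines. Of the prostate markers, HOXB13 stood at 61.9 to 92.9 CPM in PC3 while KLK3 was at 0, and of the colon markers CDX2 alone was expressed in HCT116, at 16.2 to 20.9 CPM. HOXB13 was also detected in HCT116, at 9.57 to 10.9 CPM. The summed level of 3 leukocyte markers was at most 0.905 CPM. That of 3 fibroblast markers was 6.78 to 12.6 CPM in PC3 and 8.41 to 12.4 in HCT116, nearly all of it COL1A1, with DCN at no more than 0.0109 CPM. That of 3 endothelial markers was 1.75 to 3.03 CPM in PC3, nearly all of it PECAM1, and at most 0.433 in HCT116. Their part in the results was not tested. NDRG1, a known target of the hypoxia-inducible factors, rose from 276 to 426 CPM in normoxic PC3 libraries to 1906 to 3409 in hypoxic ones, and from 72.2 to 82.0 to 406 to 648 CPM in HCT116. The distance between 2 libraries was taken as the chi-square per gene. Normoxic PC3 replicate 1 stood apart from replicates 2 to 4 (117 to 205, against 12.5 to 43.0 among those). In hypoxic PC3 cells replicate 1 (103 to 268) stood apart, and so did replicate 4 (108 and 147 from replicates 2 and 3, which differed by 15.9). Normoxic HCT116 replicate 3 lay apart from replicates 1 and 2 (118 and 87.8, against 22.9). Results that rest on the PC3 libraries of replicate 1 are given without them as well.

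The lines expressed different ligands. In normoxia EREG, which encodes epiregulin, was at 1009, 1043 and 1060 CPM in HCT116 and at 2.37, 1.90, 2.09 and 1.93 CPM in PC3. EPGN, which encodes epigen, showed the opposite pattern, with 117, 120, 121 and 93.3 CPM in PC3 and 0.161, 0.198 and 0.172 CPM in HCT116, the latter resting on 23 to 28 counts per library. The lines did not overlap in either gene. The fold was 507 for EREG (higher in HCT116) and 626 for EPGN (higher in PC3).

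AREG, encoding amphiregulin, was also higher in HCT116, at 36.2 ± 5.58 CPM (SD, n = 3) against 8.42 ± 1.09 (SD, n = 4). The other ligands were higher in PC3. TGFA, transforming growth factor alpha, was at 208 ± 51.6 CPM in PC3 and 84.1 ± 4.65 in HCT116. HBEGF, the heparin-binding ligand, was at 42.7 ± 15.4 against 8.42 ± 0.781 CPM. BTC, betacellulin, was at 15.1 ± 1.12 against 1.32 ± 0.0839 CPM. EGF itself was at 5.58 ± 1.16 CPM in PC3 and at 0.0994 ± 0.0270 in HCT116, where it had 11 to 18 counts. No ligand's normoxic levels overlapped between the lines. The share of all genes without overlap was not taken, but 83.4% of all genes tested differed between the lines by the test given below.

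Among the receptors EGFR, which binds all of these ligands, was at 308 ± 17.9 CPM in PC3 and 48.0 ± 1.73 in HCT116, a fold of 6.32. ERBB3, a receptor with a weak kinase that signals through its partners, was at 52.1 ± 5.82 against 23.3 ± 0.807 CPM. ERBB2, which has no known ligand and acts as a partner of the other receptors, did not differ beyond its spread, at 78.1 ± 12.2 in PC3 and 69.3 ± 5.69 in HCT116 (log2 fold change 0.15, 95% interval -0.12 to 0.43). PC3 was tested against HCT116 in normoxia by edgeR (quasi-likelihood), with a Benjamini-Hochberg adjusted p under 0.05 over all 15206 genes as the threshold, and 7 members were higher in PC3 and 2 (AREG and EREG) lower. The same threshold was passed by 42.9% of all genes in the direction of PC3 and by 40.5% in the other, so the lines differed in most of their transcriptome.

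**Figure D1:**
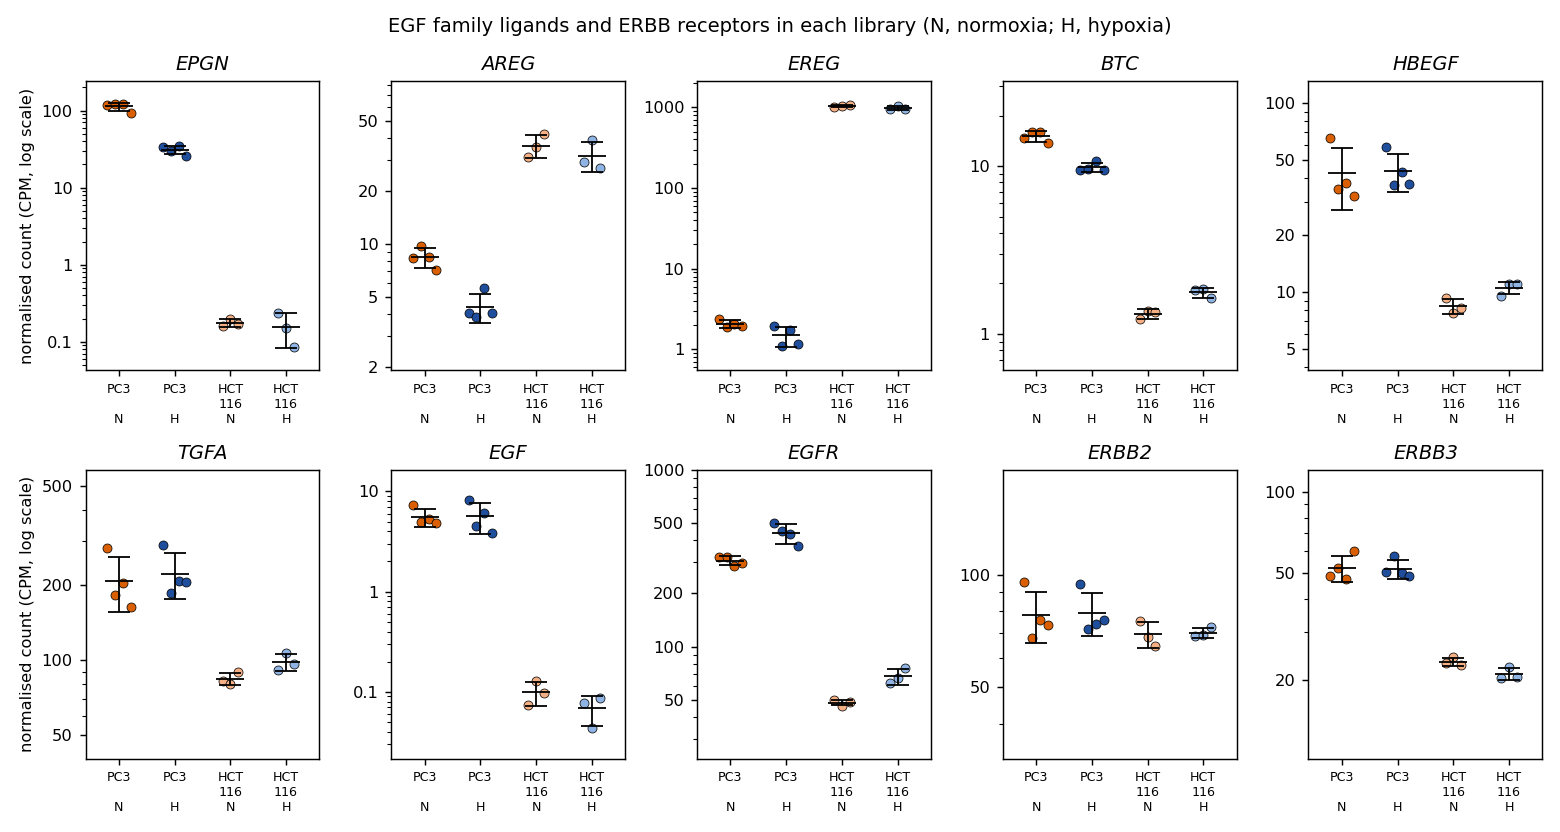
Normalised counts (CPM, log scale) of the 10 genes in each of the 14 libraries, as points, with the mean and SD of each group as black bars; N is normoxia and H hypoxia. EPGN is high in PC3 alone and falls there in hypoxia, EREG is high in HCT116 alone, and EGFR is higher in hypoxia in both lines.

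Levels of different genes can be set side by side only per length, and CPM per kilobase of the canonical transcript was used for this. In normoxic PC3 cells TGFA (50.5 ± 12.5) and EPGN (42.1 ± 4.89) came first among the ligands, with overlapping ranges, followed by HBEGF (18.1 ± 6.52), then AREG (6.82 ± 0.880) and BTC (5.70 ± 0.421), whose ranges overlapped, and then EGF (0.874 ± 0.181) and EREG (0.449 ± 0.0469). In hypoxia EPGN fell behind HBEGF, to 11.6 ± 1.54 CPM per kilobase against 18.6 ± 4.26. In normoxic HCT116 cells the order was EREG (225 ± 5.63), AREG (29.4 ± 4.52), TGFA (20.4 ± 1.13), HBEGF (3.57 ± 0.331), BTC (0.496 ± 0.0316), EPGN (0.0660 ± 0.00723) and EGF (0.0156 ± 0.00423), and no neighbours in it overlapped. In hypoxia AREG (25.7 ± 5.01) and TGFA (23.9 ± 1.93) overlapped there. With the length of all exons in place of the canonical transcript, AREG and BTC changed places in normoxic PC3 cells, as did AREG and TGFA in hypoxic HCT116 cells, and no other ranks moved. The receptors ran EGFR (31.1 ± 1.80), ERBB2 (17.1 ± 2.69) and ERBB3 (9.27 ± 1.04) in PC3, and ERBB2 (15.2 ± 1.25), EGFR (4.85 ± 0.174) and ERBB3 (4.16 ± 0.144) in HCT116.

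The level of AREG carries a limit of the genome build. All 1642 of its exonic bases have a copy of 99.94% identity at 4:75480629-75490481 in GRCh37, the locus annotated as AREGB, which has no row of its own in the counts. Reads that fit both places may have been counted at either or dropped, so the true level of AREG is uncertain, in all libraries alike.

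In hypoxic PC3 cells the 4 clustered ligands were the lowest of the set. EPGN went from 117, 120, 121 and 93.3 CPM in normoxia to 34.2, 30.2, 34.3 and 25.6 in hypoxia. No library of one condition reached the range of the other, and the ratio of hypoxia to normoxia lay between 0.251 and 0.292 in the 4 pairs with the same replicate number. The log2 fold change was -1.85 ± 0.12 (SE; 95% interval -2.13 to -1.58), a 3.62-fold lower level, which ranked 12 from the lowest of the 14309 genes tested. In these bulk samples fewer cells that express a gene and less RNA per cell cannot be told apart.

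AREG was at 8.30, 9.78, 8.46 and 7.12 CPM in normoxic and 4.06, 3.87, 5.65 and 4.08 in hypoxic PC3 libraries. Every hypoxic library lay below every normoxic one, and the log2 fold change was -0.92 ± 0.15 (95% interval -1.26 to -0.59). BTC, a ligand of both EGFR and ERBB4, was at 14.7, 16.0, 16.1 and 13.7 CPM in normoxia and 9.43, 9.58, 10.8 and 9.53 in hypoxia. These values did not overlap either, and the log2 fold change was -0.62 ± 0.08 (95% interval -0.81 to -0.43). EREG, whose product also binds EGFR and ERBB4, was at 2.37, 1.90, 2.09 and 1.93 CPM in normoxia and 1.97, 1.11, 1.74 and 1.16 in hypoxia, on 78 to 283 counts per library. Hypoxic replicate 1 reached into the normoxic range. Its log2 fold change of -0.46 ± 0.21 (95% interval -0.94 to 0.02) did not pass the threshold.

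The remaining ligands differed by less than their spread in PC3. TGFA was at 281, 183, 204 and 164 CPM in normoxia and 290, 186, 207 and 205 in hypoxia (log2 fold change 0.10 ± 0.20). HBEGF was at 65.5, 35.2, 37.5 and 32.4 CPM and then 58.3, 36.9, 43.3 and 37.1 (0.05 ± 0.24). EGF was at 7.30, 4.94, 5.25 and 4.85 CPM and then 8.22, 4.52, 6.06 and 3.87 (0.03 ± 0.24). In these 3 genes replicate 1 was the highest library of both conditions, and the conditions overlapped. Without both libraries of replicate 1 the log2 fold changes were 0.13 ± 0.10 for TGFA, 0.16 ± 0.09 for HBEGF and -0.05 ± 0.17 for EGF. Those of EPGN, AREG, BTC and EREG were then -1.89 ± 0.14, -0.89 ± 0.18, -0.61 ± 0.10 and -0.55 ± 0.20.

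EGFR was higher in hypoxic PC3 cells. Its levels of 324, 321, 286 and 299 CPM in normoxia and 505, 451, 433 and 370 in hypoxia did not overlap, and the log2 fold change was 0.52 ± 0.10 (95% interval 0.29 to 0.75). Without normoxic replicate 3 the log2 fold change of 0.49 no longer passed the threshold, and with any other single library left out it did. ERBB2 was at 95.8, 67.8, 75.6 and 73.3 CPM in normoxia and 94.8, 71.8, 73.8 and 76.0 in hypoxia, and ERBB3 at 48.6, 51.8, 47.4 and 60.3 and then 50.2, 57.9, 50.0 and 48.6. Both receptors overlapped between conditions, with log2 fold changes of 0.02 ± 0.13 and -0.01 ± 0.09. The counting is not stated to use strand, and 5.53% of the exonic bases of ERBB2 are shared with MIEN1 on the opposite strand.

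Of the 10 genes in PC3, 1 (EGFR) passed the threshold as higher in hypoxia and 3 (EPGN, AREG and BTC) as lower, by the same edgeR test, adjusted over 14309 genes. Of all genes tested, 6.03% were higher and 5.29% lower by the same rule. The share of all genes without overlap between conditions was not taken in PC3. The genes were chosen with this contrast known, so nothing is read from the count. The median log2 fold change of the 10 was 0.0086, against 0.0023 over all genes. The PC3 libraries were also taken as pairs by replicate number. With the number as a block in the model EREG passed as well, giving 1 higher and 4 lower, against 14.9% higher and 13.6% lower of all genes.

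In HCT116 EGFR was again higher in hypoxia, with 49.5, 46.1 and 48.4 CPM in normoxia and 61.8, 65.9 and 75.3 in hypoxia. The conditions did not overlap, and the log2 fold change was 0.51 ± 0.07 (95% interval 0.35 to 0.68). It passed the threshold with each of the 6 libraries left out in turn.

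A group of 3 ligands in HCT116 was higher by smaller amounts. HBEGF was at 9.27, 7.73 and 8.27 CPM in normoxia and 9.57, 11.04 and 10.97 in hypoxia (log2 fold change 0.34 ± 0.09, 95% interval 0.13 to 0.54). TGFA was at 82.4, 80.6 and 89.4 CPM and then 91.0, 107 and 96.8 (0.24 ± 0.08, 95% interval 0.07 to 0.40). BTC was at 1.22, 1.38 and 1.35 CPM and then 1.82, 1.85 and 1.63 (0.44 ± 0.15, 95% interval 0.11 to 0.77). The conditions did not overlap in any of them. The share of all genes without overlap between conditions was not taken, but 25.9% of all genes tested in HCT116 passed the threshold in either direction. Each of the 3 calls was lost in some or all fits with 1 library left out. The call of HBEGF was lost without normoxic replicate 2 (log2 fold change 0.27), hypoxic replicate 2 (0.30) or hypoxic replicate 3 (0.32). That of TGFA was lost without normoxic replicate 1 (0.21), normoxic replicate 2 (0.20), hypoxic replicate 2 (0.17) or hypoxic replicate 3 (0.26). BTC lost its call whichever of the 6 libraries was left out, with log2 fold changes of 0.38 to 0.50.

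EREG, the leading ligand of HCT116, was at 1009, 1043 and 1060 CPM in normoxia and 941, 1032 and 964 in hypoxia, with overlap (log2 fold change -0.07 ± 0.06, 95% interval -0.21 to 0.07). AREG was at 31.1, 35.5 and 42.1 CPM and then 29.3, 38.8 and 27.1 (-0.17 ± 0.14). EPGN and EGF were near the limit of detection there, with 11 to 34 and 6 to 18 counts per library, and their log2 fold changes of -0.13 ± 0.42 and -0.51 ± 0.51 left changes of either direction within the interval. ERBB2 was at 75.5, 68.0 and 64.4 CPM and then 68.6, 69.1 and 72.4 (0.03 ± 0.07). ERBB3 was at 23.1, 24.2 and 22.7 CPM and then 20.4, 22.4 and 20.5 (-0.13 ± 0.07), where the conditions did not overlap but the threshold was not passed.

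In HCT116 4 of the 10 genes (EGFR, HBEGF, TGFA and BTC) passed the threshold as higher and 0 as lower. Of all 14120 genes tested, 14.6% were higher and 11.3% lower. Of members with a lower level, 0 had an unadjusted p under 0.05 in edgeR and 0 passed in DESeq2, which called 3 members higher. With libraries scaled by total count alone, EGFR passed as higher and ERBB3 as lower, and no other member passed. The median log2 fold change of the 10 was -0.017, against 0.0018 over all genes.

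**Figure D2:**
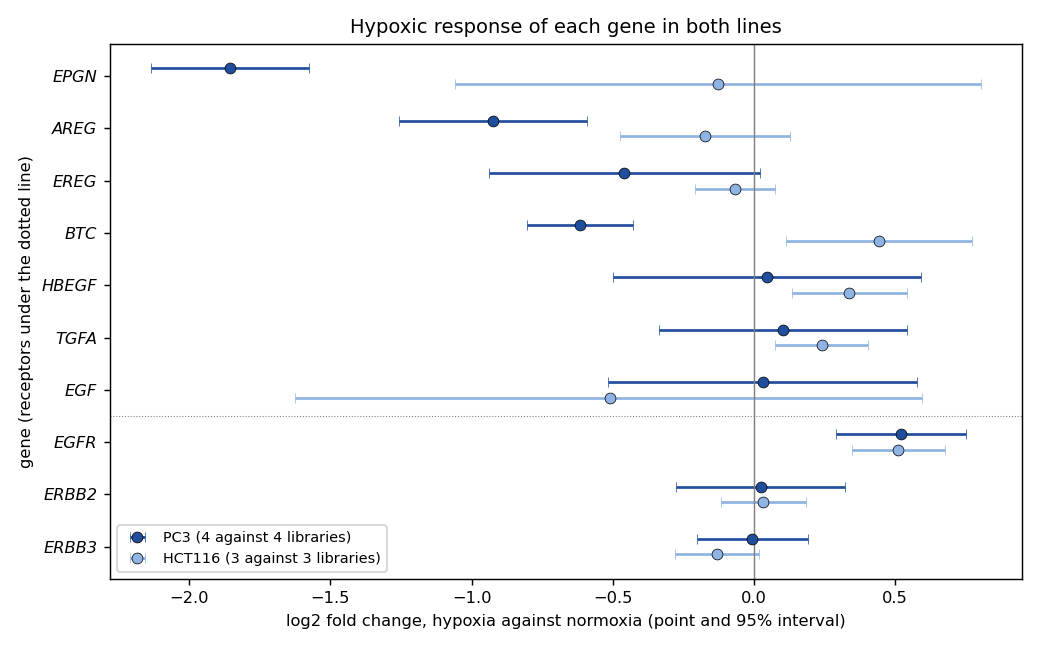
Log2 fold change of hypoxia against normoxia for each gene in PC3 (dark) and HCT116 (light), with 95% intervals; receptors stand under the dotted line. EPGN, AREG and BTC lie left of 0 in PC3, BTC lies right of 0 in HCT116, and EGFR has nearly the same position in both lines (0.52 and 0.51).

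The responses of the lines were set against each other as the interaction of line and oxygen over all 14 libraries. BTC differed, with a log2 fold change in PC3 that was lower than that in HCT116 by 1.05 ± 0.14 (95% interval of the difference -1.34 to -0.75), since it was lower in hypoxia in every PC3 pair and higher in every HCT116 pair with the same number. For EPGN the difference was -1.72 ± 0.35 (95% interval -2.46 to -0.98), with the error set by the few counts in HCT116. These 2 members passed the threshold, as did 2.32% of the 15493 genes tested. The call of EPGN was lost without normoxic replicate 1 (-1.66), hypoxic replicate 1 (-1.30), hypoxic replicate 2 (-1.77) or normoxic replicate 3 (-1.70) of HCT116. With the replicate number as a block AREG passed too, with a difference of -0.74 ± 0.20. The response of EGFR differed between the lines by 0.02 ± 0.14 (95% interval -0.27 to 0.31), so any difference within these bounds is compatible with the data.

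The make-up of the ligand transcripts was then taken as the share of each ligand in the summed CPM per kilobase of the 7. In PC3 the sum was 124 ± 22.1 in normoxia and 92.7 ± 16.7 in hypoxia, ranges that overlapped. EPGN made up 28.4 to 37.6% of it in normoxia and 10.9 to 14.1% in hypoxia. TGFA went from 37.2 to 44.4% to 55.0 to 60.5%, and HBEGF from 12.5 to 18.1% to 19.0 to 21.2%. None of these ranges overlapped between conditions, and since shares sum to 100%, a lower share of EPGN raises the others by construction. In HCT116 EREG made up 79.3 to 81.5% in normoxia and 78.1 to 80.4% in hypoxia of a sum of 279 ± 10.7 and 267 ± 17.0. AREG is part of every sum, so the uncertainty of its level, given above, carries over to the sums and to all shares.

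**Figure D3:**
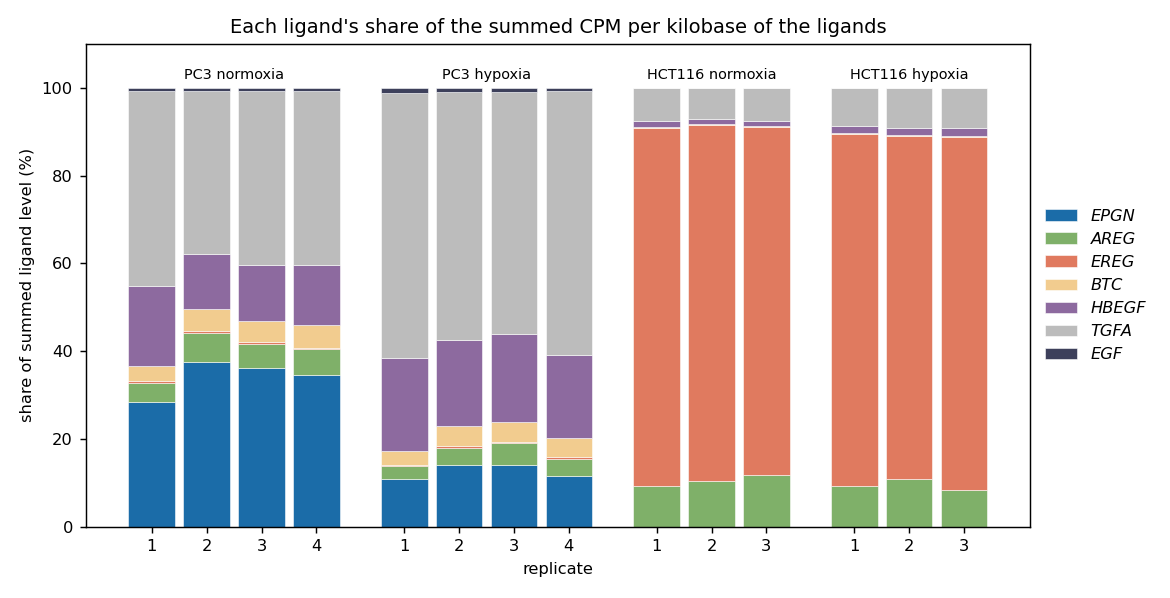
Share of each ligand (%) in the summed CPM per kilobase of the 7 ligands, as 1 stacked bar for each library. EPGN (blue) shrinks from 28.4 to 37.6% to 10.9 to 14.1% between normoxic and hypoxic PC3 cells, and EREG (orange) holds at least 78.1% of every HCT116 bar.

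Since the 4 ligands that were lowest in hypoxic PC3 cells are neighbours, the other genes within 0.5 Mb of them were described too, a window chosen after the values were seen. It holds 11 further genes, many of them chemokines of the CXCL family, which attract neutrophils. Of the 9 with enough counts in PC3, 1 passed the threshold, beside 11.3% of all genes tested, so nothing is read from the count. That gene was CXCL1, which went from a mean of 89.7 CPM to 51.1 (log2 fold change -0.80 ± 0.15). CXCL2 and CXCL3 had log2 fold changes of -0.99 ± 0.41 and -0.85 ± 0.29, which did not pass. CXCL5 and MTHFD2L were at -0.33 ± 0.27 and -0.24 ± 0.14. PF4V1 and PPBP, also inside the window, were at 0.55 ± 0.52 and 0.61 ± 0.31, on means of 0.0862 to 0.503 CPM. At the ends of the window CXCL6 and PARM1 were at 0.24 ± 0.15 and 0.09 ± 0.09. None of these passed either. In HCT116 5 of the 11 could be tested, and MTHFD2L passed as lower (-0.57 ± 0.10) and PARM1 as higher (0.21 ± 0.07). Of all genes tested there, 25.9% passed in either direction. CXCL1 and MTHFD2L kept their calls with each library left out in turn, and PARM1 kept its call in 0 of 6 such fits, a setting added after seeing the data.

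**Figure D4:**
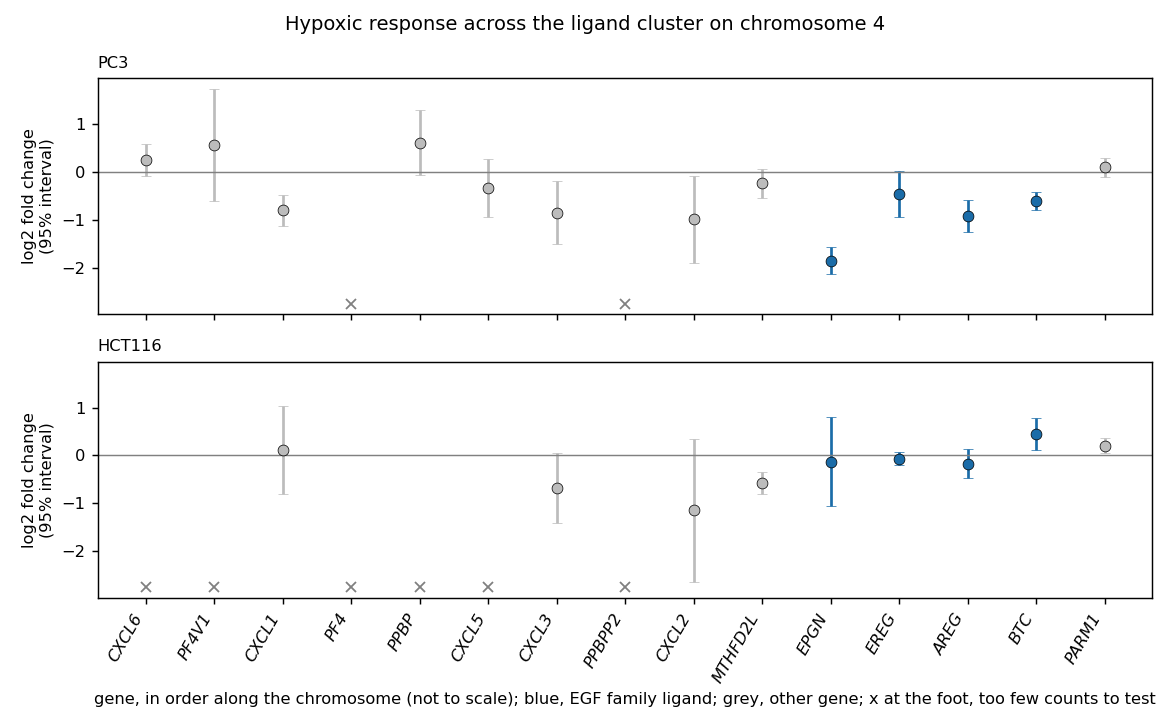
Log2 fold change of hypoxia against normoxia, with 95% intervals, for the genes of the chromosome 4 window in their order along the chromosome, in PC3 (upper) and HCT116 (lower). The 4 EGF family ligands (blue) lie below 0 in PC3, from -1.85 to -0.46, with the interval of EREG reaching 0.02, while in HCT116 BTC lies at 0.44.

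The remaining genes of the family were few and low. NRG1, NRG2, NRG3 and NRG4 encode neuregulins, the ligands of ERBB3 and ERBB4. NRG1 was at 2.12 to 2.39 CPM in normoxic HCT116 cells and at 0.0251 to 0.194 in PC3, on 3 to 20 counts. NRG2 was at 1.99 to 2.83 CPM in PC3 and 1.46 to 1.57 in HCT116, NRG4 stayed under 1.13 CPM in normoxic libraries of both lines, and NRG3 had at most 4 counts in any library. ERBB4, the fourth receptor, was at 0.472 to 2.00 CPM in normoxic PC3 cells, highest in replicate 1, and at no more than 0.0373 in HCT116. In hypoxia none of the 3 genes that could be tested in each line passed the threshold in edgeR, where 0 (PC3) and 1 (HCT116) had an unadjusted p under 0.05, and DESeq2 called 0 in each.

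A list of 81 further genes of the EGF receptor pathway, which includes these, was drawn from textbook knowledge, with earlier results of these data known. In PC3 12 of the 75 tested were higher in hypoxia and 5 lower, against 6.03% and 5.29% of all genes, and their median log2 fold change was 0.05 against 0.0023. Libraries scaled to their totals instead gave 6 higher and 10 lower. With the replicate block the numbers were 18 and 7, against 14.9% and 13.6% of all genes. Without both libraries of replicate 1, 8 were higher and 3 lower. Between 7 and 17 of the list passed with 1 library left out, with 9 without normoxic replicate 1, 10 without hypoxic replicate 1, 7 without normoxic replicate 2, hypoxic replicate 2 or normoxic replicate 3, and 9 without normoxic replicate 4. In HCT116 11 of 76 were higher and 3 lower, against 14.6% and 11.3%, and their median was 0.03 against 0.0018. There upper-quartile scaling gave 9 and 5, total-count scaling 6 and 10, and 8 genes passed without hypoxic replicate 2.

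Of the receptor attenuators, 3 of 20 were higher and 3 lower in PC3, where 6.03% of all genes were higher and 5.29% lower. ERRFI1, which encodes the EGFR inhibitor MIG6, rose in both lines, by 1.24 ± 0.08 in PC3 (adjusted p = 0.000101, edgeR with Benjamini-Hochberg adjustment) and by 1.07 ± 0.08 in HCT116 (adjusted p = 6.42e-06, same test) on the log2 scale, and its rise was known from earlier results. CBL, a ubiquitin ligase that marks EGFR for breakdown, and SH3KBP1, its adaptor, rose in PC3 by 0.49 ± 0.09 and 0.31 ± 0.08. CBLC, a related ligase, fell by 0.54 ± 0.08, and LRIG1, a membrane protein that restrains ERBB receptors, fell by 0.48 ± 0.13. SOCS4 fell in both lines, by 0.28 ± 0.07 in PC3 and 0.25 ± 0.07 in HCT116. PTPRK, a phosphatase that acts on EGFR, fell by 0.25 ± 0.07 in HCT116, where 1 of 20 attenuators was higher and 2 were lower, against 14.6% and 11.3% of all genes. With 1 library left out the PC3 calls of ERRFI1, CBL and CBLC were kept in all 8 fits. That of SH3KBP1 was kept in 3 (without hypoxic replicate 3 or 4 or normoxic replicate 4), that of LRIG1 in 2 (without hypoxic replicate 3 or 4) and that of SOCS4 in 1 (without hypoxic replicate 4). In HCT116 the call of ERRFI1 was kept in all 6 fits. SOCS4 lost it there without hypoxic replicate 2 (-0.25) or 3 (-0.20), and PTPRK without hypoxic replicate 1 (-0.22), hypoxic replicate 2 (-0.24) or normoxic replicate 1 (-0.23).

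Among the adaptors and transducers, 6 of 32 rose in PC3, beside 6.03% of all genes, and 7 of 34 were higher and 1 lower in HCT116, against 14.6% and 11.3%. MAP2K1, the MEK1 kinase, rose by 0.64 ± 0.07 in PC3 and 0.47 ± 0.06 in HCT116, CRKL by 0.42 ± 0.07 and 0.36 ± 0.06, and GRB2, the adaptor that links the receptors to RAS, by 0.26 ± 0.06 and 0.18 ± 0.06. SRC rose in PC3 (0.34 ± 0.06), and GAB1 (0.76 ± 0.17) and HRAS (0.29 ± 0.07) rose in HCT116, where NCK1 fell by 0.33 ± 0.09. The calls of MAP2K1, CRKL, SRC and GAB1 were kept with each library left out in turn. That of GRB2 was kept in 2 of 8 fits in PC3 (without hypoxic replicate 1 or 4) and in 0 of 6 in HCT116, where its log2 fold changes were 0.16 to 0.21. HRAS lost its call without normoxic replicate 2 (0.25) and NCK1 without hypoxic replicate 3 (-0.28). Of the sheddases and their regulators, ADAM12 (0.66 ± 0.18) and ADAM19 (0.40 ± 0.10) were higher in PC3 and FRMD8, a partner of the iRhom proteins that steer the sheddase ADAM17, was lower (-0.27 ± 0.06), while ADAM9 was higher in HCT116 (0.19 ± 0.06). These calls, too, were lost in some or all fits with 1 library left out. ADAM12 kept its call in 2 of 8 fits (without normoxic replicate 1 or hypoxic replicate 4), ADAM19 in 2 (without hypoxic replicate 1 or normoxic replicate 4), FRMD8 in 4 (lost without normoxic replicates 2, 3 or 4 or hypoxic replicate 2) and ADAM9 in 0 of 6. ADAM12 was at 0 in normoxic HCT116 cells.

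The MAPK output genes are transcribed when the pathway is active and include its own phosphatases. DUSP6, which dephosphorylates ERK, rose by 0.61 ± 0.09 in PC3 and 0.61 ± 0.08 in HCT116. DUSP4 fell in PC3 (-0.23 ± 0.06) and rose in HCT116 (0.42 ± 0.08), and the responses differed by -0.64 ± 0.10 (interaction, adjusted p = 0.00347, edgeR with Benjamini-Hochberg adjustment). The fall of DUSP4 in PC3 was called in 1 of the 8 fits with a library left out (without hypoxic replicate 4), with log2 fold changes of -0.25 to -0.21, while its rise in HCT116 and the difference between the lines were called in all of theirs. These were the 2 genes of the 10 that passed in each line, a share of 20%, and the other 8 passed in neither. For comparison, 11.3% of the whole set of tested genes passed in PC3 and 25.9% in HCT116, in either direction. Over the 10 output genes the median log2 fold change was 0.01 in PC3 and 0.05 in HCT116, beside 0.0023 and 0.0018 for all genes. Whether the pathway was more or less active in hypoxia was not tested. Between the lines in normoxia 46 of 79 pathway genes were higher in PC3 and 28 lower, against 42.9% and 40.5% of all genes. The STAT3 counts were 0 in every normoxic PC3 library against 8296 to 9856 in HCT116. At a floor of 3 counts per library STAT3 was thus at least 2542-fold lower in PC3, and STAT5B at least 107-fold lower. Counts of RNA cannot tell an absent gene from one that is not transcribed, and which of these held in PC3 was not tested.

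**Figure D5:**
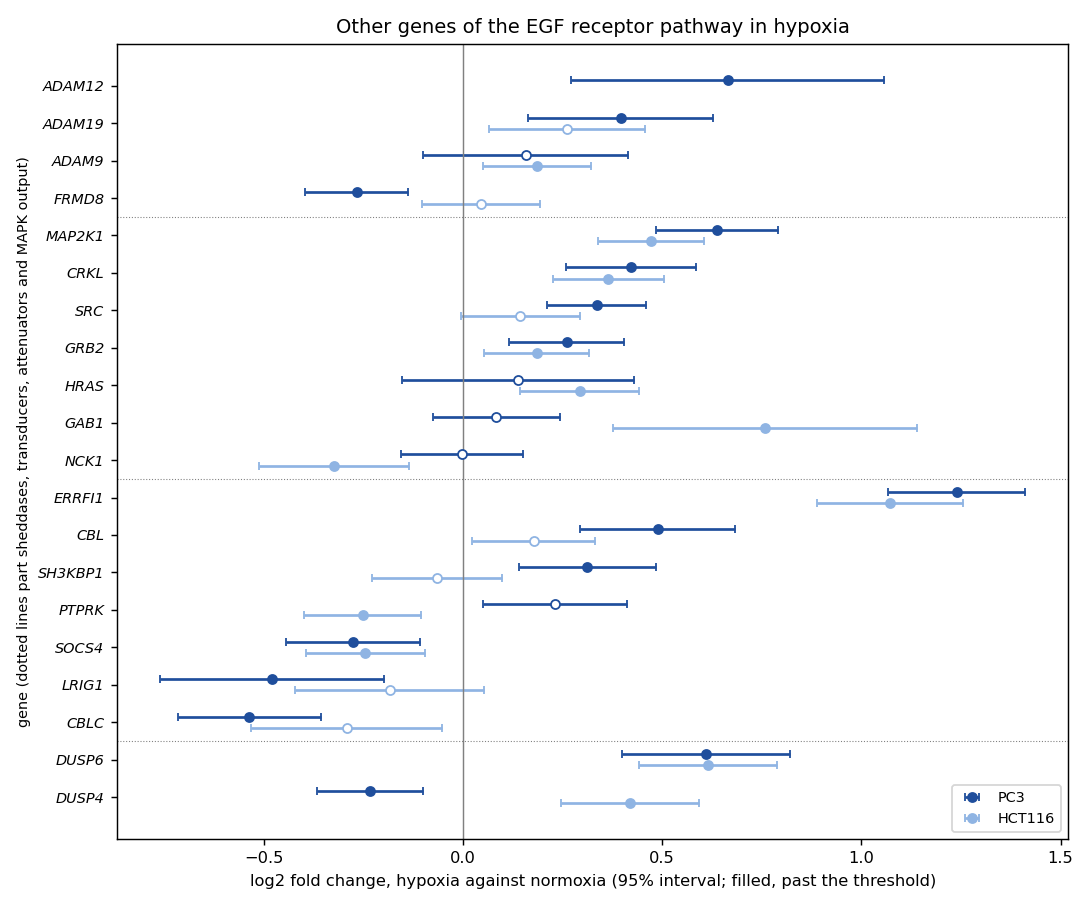
Log2 fold change of hypoxia against normoxia, with 95% intervals, for pathway genes outside the set that passed the threshold in at least 1 line (up to 4 in each list, direction and line), in PC3 (dark) and HCT116 (light); filled points passed, open points did not. ERRFI1 is the farthest right in both lines (1.24 and 1.07), and DUSP4 lies on opposite sides of 0 (-0.23 and 0.42).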

How the data were processed

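The authors aligned reads with HISAT2 (2.05) to the ERCC spike-in and then, without ERCC reads, to GRCh37, and counted reads within RefSeq genes with HTSeq (0.5.4p3, intersection-strict). The deposited counts are raw read counts per gene symbol, without normalisation, in 14 libraries. Neither the RefSeq release nor the use of strand is given in the sources used here. ERCC counts were not used here, so values are relative to the other genes of a library.

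Counts were tested with edgeR (4.0.16, R 4.3.3): filterByExpr, TMM scaling, quasi-likelihood test, two-sided, Benjamini-Hochberg adjustment over all genes tested, threshold 0.05. Standard errors were taken as the size of the unshrunk change over the root of F. Lines were compared by the interaction over all 14 libraries. Fits were tested on simulated data. Any 2 replicates differed beyond counting error (chi-square per gene 12.5 to 268) and each library was kept. The 3-count floor was 0.0201 to 0.0447 CPM and covers counting error only. CPM per kilobase used GENCODE (v44lift37) lengths.

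The 10 genes, the pathway lists and the tests were chosen with earlier results of these data known. All members and remaining family genes are named, and up to 4 genes past the threshold in each other list and direction. Replicate numbers are given in the titles. PC3 libraries with the same number deviated together (correlations of 0.149 to 0.689 across 14309 genes, 0.689 being replicate 1). Those between different numbers were -0.432 to 0.207. Each PC3 library correlated most with the one of its own number, so the numbers were taken as pairs. The margin was small for hypoxic replicate 3 (0.149, against 0.143 with normoxic replicate 2). Alternatives were other scalings, DESeq2 (1.42.0), other count filters (at least 10 counts in every library), a log2 change of 1 or more, the replicate block, 1 fit over both lines and each library left out. Leaving out both PC3 libraries of replicate 1 was added after the values had been seen.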

Additional observations from a re-analysis of the deposited data

Results flagged for a closer look

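Within the 4 replicates of a PC3 condition, 6 of the 20 groups of values examined held 1 library far from the others. Chance alone gives about 1 in 20, but the groups share the same libraries, so nothing is read from the count. Normoxic replicate 1 was high for HBEGF (65.5 CPM, others 32.4 to 37.5) and EGF (7.30 CPM, others 4.85 to 5.25). Normoxic replicate 4 was low for EPGN (93.3 CPM, others 117 to 121). Hypoxic replicate 3 was high for AREG (5.65 CPM, others 3.87 to 4.08) and BTC (10.8 CPM, others 9.43 to 9.58), and hypoxic replicate 2 for ERBB3 (57.9 CPM, others 48.6 to 50.2).

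The response to hypoxia differed between PC3 and HCT116, by the interaction of line and oxygen, for EPGN (-1.72 on the log2 scale, PC3 minus HCT116), BTC (-1.05), PTPRK (0.49) and DUSP4 (-0.64). The calls of EPGN and PTPRK were lost with some single libraries left out, and those of BTC and DUSP4 were not.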

How the results depend on the processing

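The members that passed in PC3 were 4 in number under every scaling, filter and tool tried, 5 with the replicate block and between 3 and 4 with 1 library left out. In HCT116 libraries with the same replicate number deviated together only weakly, with correlations of 0.0308 to 0.158. Those between different numbers were -0.11 to 0.0145. There 3 members passed with the replicate block, in which BTC was lost, 2 with total-count scaling and 2 with 1 fit over both lines. Between 1 and 3 passed with 1 library left out. Members passing the interaction numbered 3 with the replicate block and between 1 and 3 with 1 library left out, and 9 members differed between the lines under every alternative. With a log2 change of 1 or more also required, 1 member (EPGN) and 1 pathway gene passed in PC3, and 0 members and 1 pathway gene in HCT116, where 4 members passed without it. The same demand left 0 pathway genes in the interaction and 32 between the lines. Pathway genes in HCT116 numbered 9 with 1 fit over both lines, and those in PC3 numbered 11 without both libraries of replicate 1, a setting chosen after seeing the data. In the interaction 1 pathway gene passed with total-count scaling, 8 with DESeq2 and 9 with the replicate block. With 1 library left out, pathway genes numbered 7 to 17 in PC3, 8 to 13 in HCT116, 1 to 3 in the interaction and 70 to 74 between the lines. The cause of these differences was not tested, except that fewer libraries leave less to estimate the spread from. Total-count scaling moved the median of all genes to -0.10 in PC3 and -0.09 in HCT116, and with it the small log2 fold changes of HBEGF, TGFA, EGF and ERBB2 in PC3 and of ERBB2 in HCT116 took the other sign. No value that passed the threshold changed its sign under any alternative. In HCT116 depth limits EPGN and EGF, with 6 to 34 counts per library.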

Other observations

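The genes whose profile was nearest to a member were found by the root mean square difference of log2 CPM, each centred on its own mean, over the 14 libraries. For EPGN the nearest was CXCL1, a chemokine gene in the same chromosome 4 window (0.54 log2, against a median of 4.20 over all genes), followed by BMPR1B (0.58), ZNF528 (0.59), PCDHA11 (0.61) and FAM172BP (0.61). PCDHA11 belongs to a family of near-identical genes and FAM172BP is a pseudogene, so their counts are uncertain. The nearest gene was GCNT1 for AREG (0.25), CENPV for EREG (0.26), GOLGA7B for HBEGF (0.15), CDKN2D for TGFA (0.11), DLX1 for BTC (0.22), LOC283299 for EGF (0.30), KAT6B for EGFR (0.094), FADS3 for ERBB2 (0.060) and PTPN12 for ERBB3 (0.071). These are descriptions over 2 lines, dominated by the difference between the lines.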
